A study of Homo sapiens with 2 samples.

Results

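Erythroblasts with high embryonic zeta-globin (*HBZ*) and no detected transcript of the proliferation genes *MKI67* and *TOP2A* were examined in 2 blood-generating heart-forming organoids (BG-HFOs), labelled 32.7 and 33.10. A barcode was taken when it held 500 to 9000 genes, under 15% mitochondrial unique molecular identifiers (UMIs, each a counted transcript molecule), *HBZ* of at least 30000 and *PF4* under 1000 CPM (UMIs of a gene per 1000000 UMIs of the cell or class), at least 1 UMI of both *AHSP* (the alpha-globin chaperone) and *SLC4A1* (the red cell anion exchanger band 3), no UMI of *MKI67*, *TOP2A*, *CDH5* or *PTPRC*, and at most 3 of *MYH6*. The members were thus chosen by the measured levels of these genes in the same libraries. The rule found 342 cells among 36814 barcodes, 95 in organoid 32.7 and 247 in organoid 33.10. Both organoids were made from hES3 NKX2.5-eGFP, a human embryonic stem cell line with a green fluorescent reporter for the cardiac factor NKX2.5, as aggregates embedded in Matrigel, patterned by activating and then inhibiting WNT signalling, and supplemented with haemato-endothelial growth factors. They were dissociated separately on day 14, and each gave 1 library made with the Chromium Single Cell 3′ v3.1 chemistry. There was no untreated or second condition, so the comparisons are between cell classes of the same organoids, with n = 2 organoids from 1 cell line.

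Red cell precursors divide a few times while they fill with haemoglobin, and they leave the cell cycle as the nucleus condenses. Haemoglobin carries alpha-like and beta-like globin chains around haem. On the alpha side, development switches from embryonic zeta (*HBZ*) to alpha chains (*HBA1*, *HBA2*), which are made in fetal and adult life. On the beta side it switches from embryonic epsilon (*HBE1*) through fetal gamma (*HBG1*, *HBG2*) to adult delta and beta chains (*HBD*, *HBB*). The same cells import iron, build haem in their mitochondria and lay down a membrane skeleton of spectrin, ankyrin and band 3.

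The 95 cells were 0.608% (exact 95% binomial interval 0.492 to 0.742) of the 15632 barcodes of organoid 32.7 that passed the gene and mitochondrial limits. The 247 cells were 1.29% (1.14 to 1.46) of 19117 in organoid 33.10. The interval covers counting error only, and the share in organoid 33.10 lay above that in organoid 32.7. The cells together held 1748604 and 2993085 UMIs, with a median of 17673 UMIs and 3265 genes per cell in organoid 32.7 and 10597 UMIs and 2626 genes in organoid 33.10. The libraries shared 100 barcode sequences overall. Of these, 3 belonged to a member in 1 library, and none to a member in both.

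*HBZ* itself chose the cells, and its levels are a description. Members held a median of 71661 CPM in organoid 32.7 and 63490.2 in organoid 33.10. The lowest member inside the threshold stood at 30213.9 and 30371 CPM, and the highest barcode outside it at 27802.5 and 29084.3. *SLC4A1* rested on exactly 1 UMI in 28 and 69 members, and *AHSP* in 9 and 36. A further 22 and 66 barcodes missed the rule by exactly 1 UMI of *MKI67* or *TOP2A*. Membership of shallow cells therefore turned on single molecules.

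Erythroid genes that the rule did not use were detected in varying shares of the members. *ALAS2*, the erythroid enzyme that commits glycine to haem synthesis, was detected in 94 of 95 and 238 of 247 cells, at 741 and 761 CPM. *KLF1*, the master transcription factor of the erythroid lineage, was detected in 86 and 209 cells, at 220 and 242 CPM. *GATA1*, the zinc finger factor that drives erythroid and megakaryocyte genes, was detected in 73 and 162 cells, the erythropoietin receptor gene *EPOR* in 64 and 116, and *GFI1B* in 46 and 114. Genes of terminal maturation varied. *UBAC1*, a ubiquitin ligase subunit, was found in 81 and 201 cells, and *BNIP3L*, a receptor for the removal of mitochondria, in 80 and 184. *EPB42*, a band 3 anchor, was found in 46 and 76 cells at 38.3 and 41.1 CPM, and *TRIM58*, a ubiquitin ligase of nuclear expulsion, in 25 and 53 cells at 19.4 and 24.1 CPM. *TSPO2*, *TRIM10*, *ERFE* and *PLEK2* summed to 2, 3, 2 and 4 UMIs over all 342 cells. The erythroblast label was thus borne out, whereas these last 4 genes were at or near the limit of detection.

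The description of these cells as non-cycling was checked on cell cycle genes other than the 2 that chose them. Each cell was thinned to 3000 UMIs, which left out 1 and 9 shallower members, and cells with 2 or more UMIs over 20 S-phase genes (replication factors such as *MCM* subunits, *PCNA* and *TYMS*) were counted. In organoid 32.7, 36.2% (26.5 to 46.7) of the members reached this level, against 85.9% of erythroblasts that had at least 1 *MKI67* or *TOP2A* UMI and 13.0% of megakaryocytes. In organoid 33.10, 44.1% (37.7 to 50.7) of the members reached it, against 84.0% and 11.6%. For 20 genes of G2 and mitosis the members' share was 13.8% (7.57 to 22.5) and 20.2% (15.3 to 25.8), against 82.8% and 79.5% of the *MKI67*- or *TOP2A*-positive erythroblasts and 8.76% (6.31 to 11.8) and 8.54% (7.19 to 10.1) of megakaryocytes. Without thinning, 80% and 74.1% of the members passed for S phase, and 63.2% and 60.3% for G2 and mitosis. A lower share than in the *MKI67*- or *TOP2A*-positive erythroblasts follows from the choice of the classes, and the intervals cover counting error within 1 library each, so these shares are a description with no test. Members with transcripts of both lists were thus present. They are called MKI67/TOP2A-negative erythroblasts below. Free RNA can add such UMIs to any droplet, and its part in these shares was not tested.

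**Figure D1:**
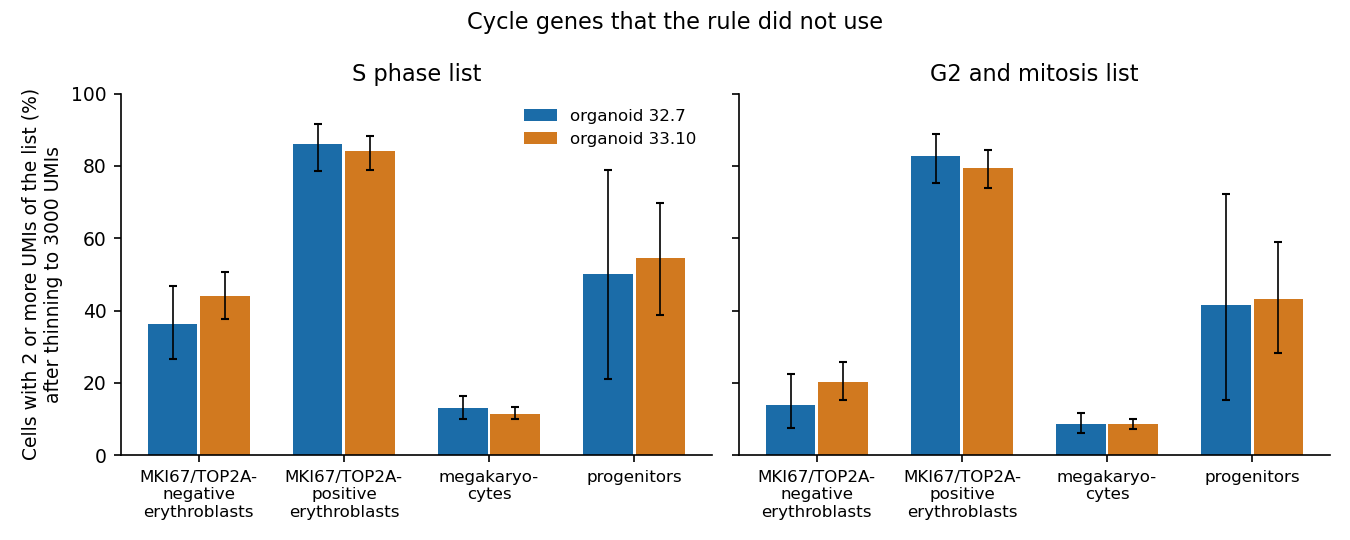
Share of cells (percent) with 2 or more UMIs of the S-phase list (left) or the G2 and mitosis list (right) after thinning every cell to 3000 UMIs, for 4 classes and both organoids; error bars are exact 95% binomial intervals over cells. MKI67/TOP2A-negative erythroblasts sit at 36.2% and 44.1% for S phase, with megakaryocytes at 13.0% and 11.6%; the order against MKI67/TOP2A-positive erythroblasts follows from the choice of the classes.

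Globin transcripts took 16.1% and 15.8% of all UMIs in MKI67/TOP2A-negative erythroblasts, against 12.9% and 13.3% in MKI67/TOP2A-positive erythroblasts and 3.46% and 3.29% in megakaryocytes. *HBZ* itself made up 75270.3 and 69899.8 CPM of the members' share, and since the rule required it of both erythroblast classes and not of megakaryocytes, the gap to megakaryocytes was partly set by the rule. Mitochondrial and ribosomal protein genes were left out of the ranking that follows. In it *HBG2* was the second most abundant gene at 35172.1 and 38663.1 CPM, followed by *HBE1* at 23491.9 and 19944.3. The nuclear RNA *MALAT1* stood at 20710.8 and 21750.8, and *HBA1* at 13892.2 and 14153.6. Behind these came the ferritin light chain *FTL*, *HBG1*, the elongation factor *EEF1A1*, *HBA2* at 6392.5 and 6715.8, the ferritin heavy chain *FTH1*, and the mitochondrial iron importer *SLC25A37* at 2724.5 and 3316. Ribosomal protein genes held 29.6% and 30.1% of the UMIs, against 10.9% and 9.69% in megakaryocytes.

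Epsilon and gamma globin made up almost all beta-like transcripts. *HBE1* held 35.9% of beta-like UMIs in organoid 32.7 and 29.7% in organoid 33.10, and the gamma genes held 64.1% and 70.3%. Adult beta-globin *HBB* gave 1 UMI among 114353 beta-like UMIs and 4 among 201230, and delta-globin *HBD* gave 8 and 58. On the alpha side *HBZ*, which chose the cells, held 78.6% and 76.8%, and *HBA1* and *HBA2* together held 21.2% and 22.9%. The ratio of alpha-like to beta-like UMIs was 1.46 and 1.35, but it moved with the *HBZ* limit that chose the cells, to 1.62 and 1.5 at 60000 CPM. *HBG2* made up 83.9% and 81.8% of gamma UMIs, but the pairs *HBG1*/*HBG2* and *HBA1*/*HBA2* are near-identical copies between which counting can split reads, so the division within a pair is uncertain. The order gamma, epsilon, then traces of delta and beta was the same in both organoids. Once 10% of the UMIs was subtracted as free RNA, *HBD* had 0 UMIs in both organoids and *HBB* kept 1 and 4. The place of delta above beta was thus lost.

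The epsilon share varied widely from cell to cell. In organoid 32.7 it ran from 2.25% to 98.1% with a median of 37.2% and an SD of 17.9 percentage points over 95 cells. In organoid 33.10 it ran from 0.318% to 99.5% with a median of 33.4% and an SD of 19.5 over 247 cells. Counting error alone gave a mean SD of 1.51 and 1.85 percentage points at the cells' depth, with a median of 979 and 684 beta-like UMIs per cell. The spread between cells was therefore about an order of magnitude above counting error. At the extremes, 1 cell of organoid 32.7 held 732 *HBE1* UMIs among 746 and another 81 among 3602, while in organoid 33.10 these were 197 among 198 and 3 among 944. Most cells carried both kinds of chain, since 86 of 95 and 195 of 247 lay between 20% and 80%. A further 3 and 12 cells lay above 80%, and 6 and 40 below 20%. The MKI67/TOP2A-positive erythroblasts showed a like spread, with medians of 39.7% and 36.4% and SDs of 18.5 and 19.8.

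**Figure D2:**
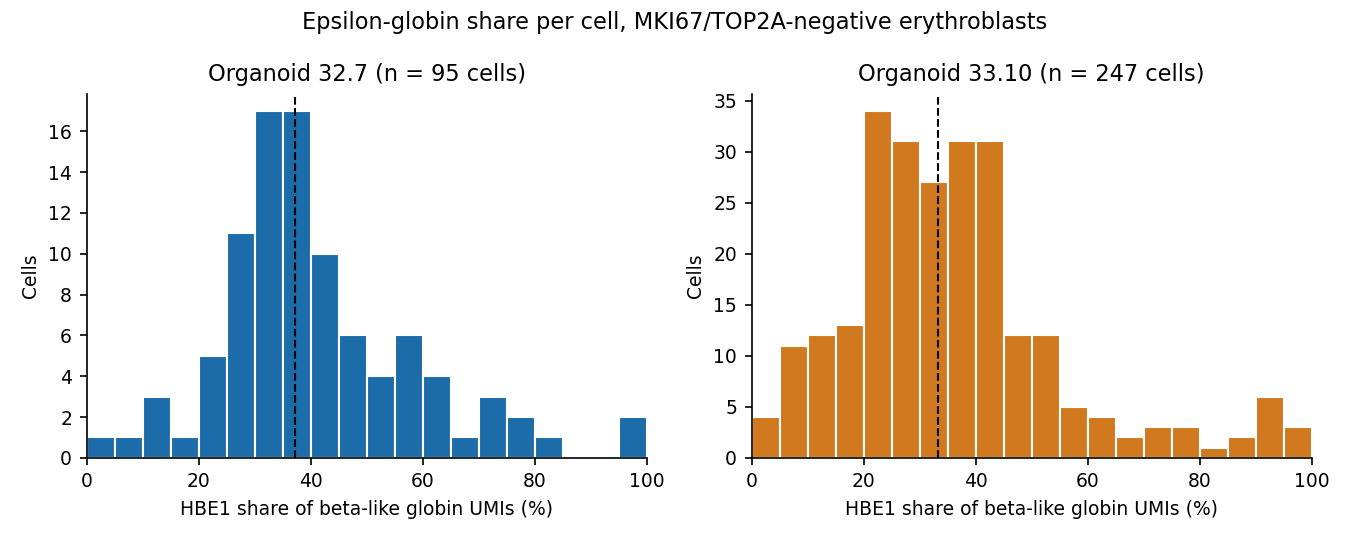
Number of MKI67/TOP2A-negative erythroblasts (y axis) by their epsilon-globin share, the *HBE1* UMIs as a percentage of all beta-like globin UMIs of the cell (x axis, bins of 5 percentage points), in organoid 32.7 (left) and 33.10 (right). Dashed lines mark the medians of 37.2% and 33.4%; most cells fall between 20% and 80%, with a few near 100%.

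The cells of each organoid were then divided into 3 equal parts by their epsilon share, which is a description within 1 library and carries no test. Gamma UMIs fell from 68269.6 through 40380.3 to 19166.1 CPM from the lowest to the highest epsilon part in organoid 32.7, and from 78582.1 through 43206 to 20890.2 in organoid 33.10. *HBE1* itself rose much less, from 19753.1 to 26077.1 CPM and from 16934.6 to 21979.6. Opposite directions of gamma and *HBE1* follow from the ranking, because both make up the epsilon share. Their relative size is not set by it, and the change was larger for gamma than for *HBE1*. Total globin fell from the lowest to the highest part, from 18.8% to 13.9% and from 19.2% to 12.8% of UMIs. The ratio of alpha-like to beta-like UMIs rose from 1.14 to 2.07 and from 1.01 to 1.99, and it contains the beta-like UMIs that formed the parts. Across cells the epsilon share and the total globin share had a Pearson correlation of -0.31 (n = 95) and -0.40 (n = 247), and the 2 shares have beta-like UMIs in common.

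Outside the globins, levels were compared along the same division as CPM of the non-globin UMIs, and *FTL*, *HMOX1* and *SPTB* are named after their values were seen. *FTL* (chromosome 19, 48965309 to 48966879, GRCh38), which stores iron as ferritin, fell from 13591 through 9617 to 8117.9 in organoid 32.7 and from 13920.4 through 8745.5 to 8173 in organoid 33.10. The lowest part thus held 1.67-fold and 1.70-fold more *FTL* than the highest, against 1.20-fold and 1.20-fold in MKI67/TOP2A-positive erythroblasts divided the same way. *HMOX1* (chromosome 22, 35380361 to 35394214), the haem-degrading enzyme, fell from 27.5 through 11.3 to 2.00 and from 34.2 through 18.8 to 1.14. It was detected in 5 of 32 and 13 of 83 cells of the lowest part and in 1 of 31 and 1 of 82 of the highest, and rested on 19 and 44 UMIs in all. In MKI67/TOP2A-positive erythroblasts divided the same way it had 0, 5.89 and 1.01 in organoid 32.7 and 3.51, 0.727 and 0 in organoid 33.10, on 7 and 6 UMIs. The spectrin beta chain *SPTB* ran the other way, from 22.9 through 75.6 to 85.8 and from 59.5 through 92.7 to 104.9, whereas in MKI67/TOP2A-positive erythroblasts its lowest and highest parts differed by 1.06-fold and 1.02-fold. Of 13466 genes outside the globins and the rule, 33.0% were higher and 17.1% lower in the highest than in the lowest epsilon part in both organoids, which is the background for counts of genes. The iron handling list as a whole did not move one way, as 2 of 14 genes were higher and 5 lower in the highest than in the lowest part in both organoids, and *FTH1* differed by 1.08-fold and 1.07-fold. *ALAS2* changed little, from 1012.5 to 810.2 and from 1027.7 to 849.7. Of the 20 S-phase genes 10 were higher in both organoids and 1 was lower. Some markers of other cell types differed between the parts too. *COL3A1*, a fibrillar collagen of mesenchymal cells, had 98.5, 158.7 and 209.5 in organoid 32.7 and 32.9, 38.7 and 86.7 in organoid 33.10. These levels rested on 23 of 95 and 22 of 247 cells, and single cells held up to 48 of its 232 and 46 of its 135 UMIs. Of 10 mesenchymal markers 2 were higher and none lower in both organoids. These shares lie below the 33.0% and 17.1% of all genes, so nothing particular to mesenchymal markers is read from them. *TNNT2*, the cardiac troponin T gene, had 213, 37.8 and 20.0 in organoid 32.7, where 1 cell held 88 of its 123 UMIs, and 30.4, 75.1 and 18.2 in organoid 33.10. Of 10 cardiomyocyte markers 6 were lower and none higher in both. The part of other cells' RNA in these differences was not tested.

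**Figure D3:**
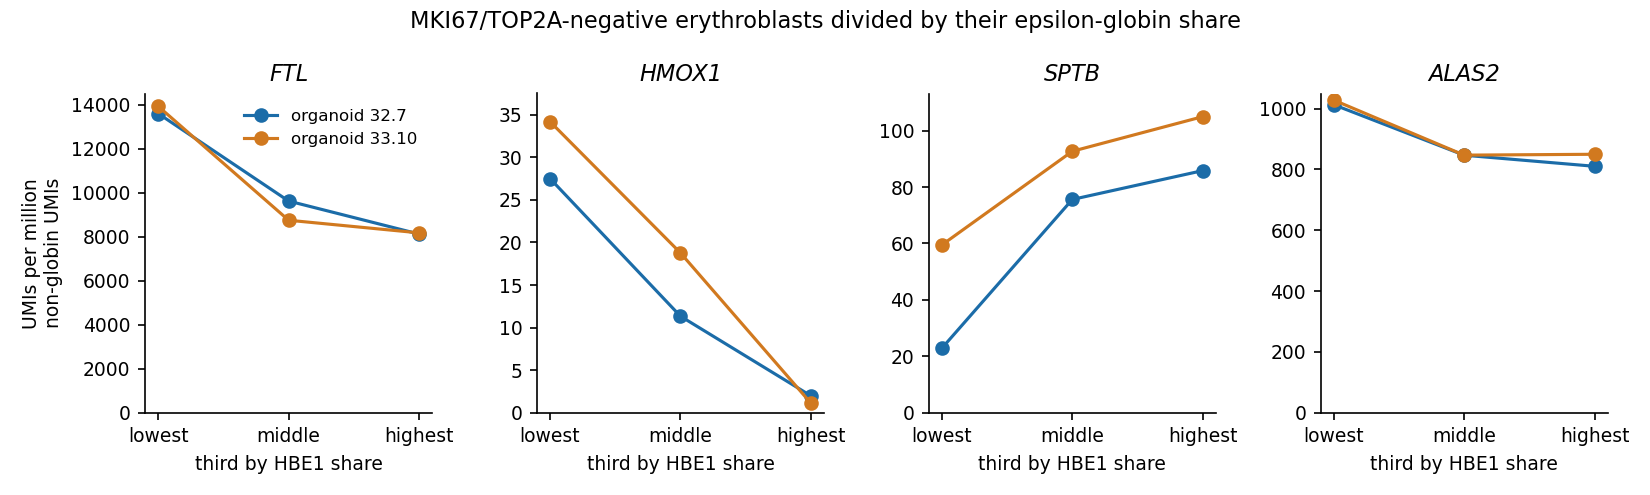
Levels of *FTL*, *HMOX1*, *SPTB* and *ALAS2* (CPM of the non-globin UMIs, y axes from 0) in MKI67/TOP2A-negative erythroblasts divided into 3 equal parts by epsilon share (x axis), with 1 line per organoid. *FTL* and *HMOX1* are highest and *SPTB* lowest in the lowest epsilon part of both organoids; each point is a sum over 31 to 83 cells and has no replicate error.

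Members that carried the most globin had fewer UMIs and fewer detected genes. The 3 equal parts by total globin share had median gene numbers of 4540, 3549.5 and 2518 in organoid 32.7 and 3112, 2881.5 and 2097 in organoid 33.10. Median UMIs fell from 21548 to 13197 and from 12328 to 9687. Across cells the relation to UMIs was weak in organoid 33.10. There the globin share and UMIs had a Pearson correlation of -0.12 and a Spearman correlation of -0.08, against -0.34 and -0.36 in organoid 32.7. The integrin *ITGA4*, the alpha chain of the adhesion receptor VLA-4, fell from 117 through 54.2 to 8.86 CPM of the non-globin UMIs and from 114 through 71.2 to 14.5. *NFIA*, a nuclear factor linked to erythroid fate, fell from 94.1 to 2.95 and from 78.0 to 23.1, and *MEIS1*, a homeobox gene of early progenitors, fell from 18.5 and from 35.0 to 0 in both. *IGF2BP1*, an RNA-binding protein of the fetal programme, fell from 75.6 to 29.5 and from 87.0 to 27.5. *FTL* and haem synthesis genes ran against these. *FTL* rose from 7398.3 to 18138.4 and from 6623.7 to 14924.1 and *ALAS2* from 634.1 to 1343.5 and from 672.2 to 1168.6.

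Of 13466 genes outside the globins and the rule, 11.8% were higher and 53.9% lower in the highest than in the lowest globin part in both organoids, and the median log2 difference was -0.24 and -0.26. By list, 10 of 14 haem synthesis genes and 11 of 16 genes of red cell metabolism and antioxidant defence were higher in the highest than in the lowest globin part in both organoids, and 2 were lower in each list. Iron handling was divided, with 4 of 14 genes higher and 5 lower in both organoids. Of 12 progenitor genes 8 were lower in both organoids and none was higher, and of 20 S-phase genes 14 were lower and none was higher. Of 10 globin switching regulators 7 were lower and 1 was higher. With 53.9% of all genes lower, nothing particular to these 3 lists is read from their counts. Mesenchymal markers also moved with the division, as 9 of 10 were lower in the highest part, with *COL1A1* falling from 204 to 2.95 and from 61.0 to 7.23. The part of other cells' RNA and of depth in these differences was not tested.

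To ask what sets the members apart from erythroblasts that express *MKI67* or *TOP2A*, UMIs were summed per organoid and class and compared with the MKI67/TOP2A-positive erythroblasts, 129 and 245 cells that met the same rule except for at least 1 *MKI67* or *TOP2A* UMI. A few iron handling and globin genes, 3 of 13 and 2 of 8 tested, were higher in the MKI67/TOP2A-negative cells, and the integrin gene *ITGA4* and the RNA-binding protein gene *IGF2BP1* were lower. Of 13474 genes tested with the edgeR quasi-likelihood test, 3.87% were called at a Benjamini-Hochberg adjusted p under 0.05, namely 137 genes (1.02%) higher and 384 genes (2.85%) lower. With the organoid as a block, 219 genes were higher. An adjusted p here measures the spread between 2 organoids. The median log2 fold change of all genes tested was 0.01. Most marker lists of other cell types had higher medians, at 0.79 over 15 megakaryocyte, 0.79 over 9 mesenchymal, 0.72 over 6 myeloid, 0.52 over 8 endothelial and 0.44 over 9 cardiomyocyte markers tested, whereas 3 endoderm markers had a median of -0.00092. Of all these markers only the megakaryocyte marker *THBS1* was called. Without the cells of both classes that held over 1000 CPM of other types' markers, an alternative chosen after seeing the data, the 5 iron handling and globin genes were still called, *FTL* at 0.80 (adjusted p = 0.00124) and *HBA2* at 0.80 (adjusted p = 0.00158).

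The iron handling list had 3 of 13 tested genes higher and none lower, with a median log2 fold change of 0.0048. *FTL* stood at 8629.7 and 8560.1 CPM against 5478.9 and 5441, a log2 fold change of 0.73 ± 0.13 (SE, adjusted p = 0.00444). Its level was not particular to the members, as *HBZ*-high cells without *SLC4A1* or *AHSP* held 11496.8 and 11092 CPM. *NCOA4* (chromosome 10, 46005088 to 46030623), the receptor that delivers ferritin for breakdown, stood at 206 and 262 against 122 and 118 (1.05 ± 0.20, adjusted p = 0.00739). *SLC25A37*, which carries iron into mitochondria, stood at 2724.5 and 3316 against 1696.9 and 2100.5 (0.75 ± 0.17, adjusted p = 0.0209). Both organoids of the MKI67/TOP2A-negative class lay above both of the other class for all 3 genes. These genes were chosen by the test and the share of all genes in that order was not counted, so it adds no support. The transferrin receptor *TFRC* did not pass the test, at 182 and 235 against 222 and 268 (adjusted p = 0.822), nor did *FTH1* (log2 fold change 0.44, adjusted p = 0.112). *HMOX1* was measured at 10.9 and 14.7 against 1.95 and 1.29, and this difference did not pass the test (3.10 ± 1.01, adjusted p = 0.121).

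Of 8 globin genes tested 2 were higher. *HBA2* (chromosome 16, 172876 to 173710), the more upstream alpha gene, stood at 6392.5 and 6715.8 against 4087.2 and 4495 (0.69 ± 0.13, adjusted p = 0.00656). In *HBZ*-high cells without *SLC4A1* or *AHSP* it stood at 7290.7 and 7398. *HBM*, the alpha-locus mu-globin gene, stood at 123 and 150 against 81.0 and 92.8 (0.73 ± 0.18, adjusted p = 0.0389). For *HBA2* and *HBM* the MKI67/TOP2A-negative and MKI67/TOP2A-positive classes did not overlap. The share of all genes without overlap was not counted, so this adds no support to the 2 calls. Counting can split reads between *HBA2* and *HBA1*, so the *HBA2* value is uncertain. The other globins did not pass, among them *HBA1* (0.46 ± 0.14, adjusted p = 0.0992), *HBG2* (0.52 ± 0.19, adjusted p = 0.19) and *HBE1* (0.39 ± 0.18, adjusted p = 0.297). The median over the list was 0.49.

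None of 14 haem synthesis genes was called in either direction, with a median of 0.10. *ALAS2* stood at 741 and 761 against 536 and 567 (0.52 ± 0.18, adjusted p = 0.154). The windows of 250 bases before the RefSeq start of *HBM*, *ALAS2* and *FTL* are shown because these genes stand for the globin, haem and iron lists, and capitals mark 3 words searched on both strands, which are CACCC of the sites of KLF factors, the CCAAT box of many promoters, and GATAA of the sites of GATA factors.

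HBM promoter: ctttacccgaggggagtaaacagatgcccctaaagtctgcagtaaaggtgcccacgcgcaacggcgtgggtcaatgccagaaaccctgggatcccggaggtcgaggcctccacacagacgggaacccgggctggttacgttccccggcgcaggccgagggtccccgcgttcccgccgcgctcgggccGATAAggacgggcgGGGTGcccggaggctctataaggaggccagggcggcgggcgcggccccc

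ALAS2 promoter: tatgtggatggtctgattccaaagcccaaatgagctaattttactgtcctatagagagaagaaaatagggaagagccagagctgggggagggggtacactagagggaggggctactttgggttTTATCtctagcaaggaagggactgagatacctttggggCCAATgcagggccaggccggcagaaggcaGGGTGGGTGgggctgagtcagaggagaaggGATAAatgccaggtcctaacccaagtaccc

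FTL promoter: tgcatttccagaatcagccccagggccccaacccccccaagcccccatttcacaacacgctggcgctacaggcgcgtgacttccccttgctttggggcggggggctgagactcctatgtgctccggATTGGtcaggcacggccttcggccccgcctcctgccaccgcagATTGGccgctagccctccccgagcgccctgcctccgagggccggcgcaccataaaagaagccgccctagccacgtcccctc

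The *HBM* window (GRCh38.p14, chr16:165728-165977, plus strand) holds 1 CACCC, 1 GATAA and no CCAAT. The *ALAS2* window (chrX:55030978-55031227, minus strand) holds 2 CACCC, which share 1 base, 1 CCAAT and 2 GATAA. The *FTL* window (chr19:48965059-48965308, plus strand), part of which lies in an exon of an unnamed long non-coding RNA, holds 2 CCAAT and neither of the other words. Among 35116 RefSeq windows of this length 54.7% hold CACCC, 32.0% CCAAT and 20.4% GATAA, so each word is common, and a match is a description of sequence only.

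Among 27 tested genes of the red cell membrane and skeleton 1 was higher and none was lower, with a median of 0.35. This was *XK* (chromosome X, 37685791 to 37732130), the carrier of the Kx antigen, at 92.7 and 112 against 47.1 and 64.7 (0.95 ± 0.23, adjusted p = 0.0291). Glycophorin B (*GYPB*) had 1350.2 and 1668.5 against 902 and 1037.8 CPM and missed the threshold (0.72 ± 0.20, adjusted p = 0.0667), which it passed with the organoid as a block (adjusted p = 0.0102). *GYPB* has similar copies in the genome, between which counting can split reads. Of 24 genes of terminal maturation 2 were higher. *UBE2H*, a ubiquitin-conjugating enzyme induced in late erythroblasts, stood at 89.8 and 90.9 against 45.1 and 50.7 (0.99 ± 0.21, adjusted p = 0.0161), and *YPEL4* at 11.4 and 14.4 against 2.23 and 4.94 (1.90 ± 0.43, adjusted p = 0.0219). None of 18 erythroid regulators and none of 16 genes of red cell metabolism was called.

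The progenitor list had 1 of 12 genes lower and the globin switching list 1 of 10. *ITGA4* stood at 60.0 and 61.1 against 140 and 119 (-1.02 ± 0.23, adjusted p = 0.0199), while the *KCNK17*-positive progenitors described below held 16.3 and 16.3, so its level does not mark those cells. *IGF2BP1* stood at 47.5 and 52.1 against 91.3 and 90.7 (-0.79 ± 0.19, adjusted p = 0.0294). Both were lower in both organoids, as they were in the members richest in globin. *BCL11A*, the adult repressor of gamma-globin, was measured at 4.00 and 0.668 against 1.11 and 1.93, with no common direction between the organoids.

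Outside the lists, the rule for naming genes gave the 5 largest differences in each direction. The histone gene *HIST1H2AC* stood at 154 and 164 CPM against 33.7 and 78.2 (1.58 ± 0.29, adjusted p = 0.00581), and *MXD4*, a repressor that antagonises MYC, at 124 and 97.6 against 46.8 and 39.5 (1.43 ± 0.21, adjusted p = 0.00111). *RGS6* stood at 62.9 and 100.9 against 21.2 and 38.5 (1.54 ± 0.39, adjusted p = 0.0427). The simple epithelial keratins *KRT8* (1.37 ± 0.25, adjusted p = 0.00552) and *KRT18* (1.36 ± 0.22, adjusted p = 0.00278) were higher too. *KRT8* stood at 120 and 82.9 against 36.5 and 45.3, and over all barcodes of the organoids at 257 and 247. Without the cells rich in other types' markers the differences were 1.21 for *KRT8* (adjusted p = 0.00967) and 1.40 for *KRT18* (adjusted p = 0.00126). The 5 largest decreases, *KIF18B*, *CDCA3*, *CDCA8*, *KIF2C* and *NDC80*, are mitotic genes that accompany *MKI67* and *TOP2A*, which defined the classes. Their levels of 0 to 4.34 CPM against 50.1 to 88.3 are therefore a description. For the same reason no calls are given for the S-phase and G2 lists, whose median differences were -0.99 and -3.54.

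The MKI67/TOP2A-negative class had the shallower cells, with medians of 17673 and 10597 UMIs against 27527 and 16538. When both classes were held to cells of 3000 to 20000 UMIs, *NCOA4*, *SLC25A37*, *HBA2*, *HBM*, *XK*, *HIST1H2AC*, *MXD4* and *KRT18* still passed. Other alternatives ended the calls of *HBA2* (adjusted p up to 0.276), *HBM* (up to 0.0704), *XK* (up to 0.0827) and *RGS6* (up to 0.211). The log2 fold changes where these calls were lost were 0.76 for *HBA2*, 0.64 to 0.74 for *HBM*, 0.82 for *XK* and 1.59 for *RGS6*. The differences thus stayed about as large. In cells of 3000 to 20000 UMIs *FTL* kept its size (0.82, adjusted p = 0.051) without passing. *UBE2H*, *YPEL4*, *ITGA4*, *IGF2BP1* and *KRT8* no longer passed there (adjusted p = 0.219, 0.163, 0.636, 0.526 and 0.100), with log2 fold changes of 0.79, 1.57, -0.49, -0.50 and 0.94. *HBG2* (0.62, adjusted p = 0.0412) and *GYPB* (0.72, adjusted p = 0.0383) passed there. Over all alternatives tried the adjusted p ran from 2.81e-06 to 0.051 for *FTL*, from 0.00127 to 0.219 for *UBE2H*, from 0.00299 to 0.163 for *YPEL4*, from 4.54e-05 to 0.636 for *ITGA4*, from 0.00423 to 0.526 for *IGF2BP1* and from 5.28e-07 to 0.100 for *KRT8*.

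**Figure D4:**
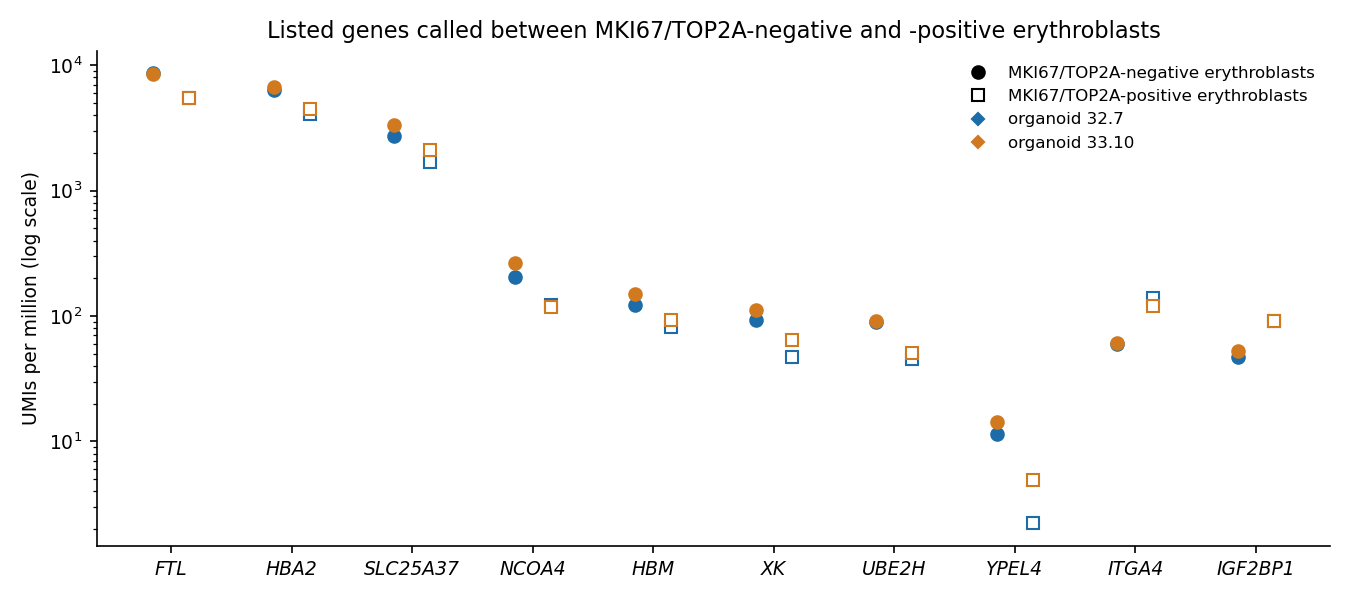
Levels (CPM, log scale) of the listed erythroid genes called between the classes, in MKI67/TOP2A-negative (filled circles) and MKI67/TOP2A-positive erythroblasts (open squares) of organoids 32.7 (blue) and 33.10 (orange). Each point is the sum over the cells of 1 class and organoid. For 8 genes both circles lie above both squares, and for *ITGA4* and *IGF2BP1* below them. The genes are drawn because they were called, so this order adds no support to the calls.

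Against the megakaryocytes of the same organoids, the platelet-forming cells of a related lineage, the members had higher levels of most haem synthesis, membrane and globin genes and lower levels of all megakaryocyte markers tested. The 618 and 1985 megakaryocytes were taken by *PF4* of at least 5000 CPM, so genes that accompany *HBZ* or *PF4* differ by the choice of the classes, and the calls describe these gated classes. Of 13474 genes 44.1% were called, 20.9% higher and 23.2% lower in the MKI67/TOP2A-negative erythroblasts.

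Of 14 haem synthesis genes 13 were higher and none was lower. Ferrochelatase *FECH*, which inserts the iron, stood at 190 and 221 CPM against 15.6 and 20.9 (3.80 ± 0.20, adjusted p = 4.15e-09). Iron handling had 7 of 13 genes higher and 2 lower. Among them *TFRC* stood at 182 and 235 against 14.7 and 18.0 (4.00 ± 0.28, adjusted p = 5.75e-08). *NCOA4* and the iron exporter *SLC40A1* were the 2 lower genes. The membrane list had 16 of 27 higher and 4 lower. The membrane protein stomatin (*STOM*) stood at 5.72 and 11 against 824 and 740 (-6.13 ± 0.30, adjusted p = 2.87e-09), and the phagocytosis inhibitor *CD47* at 37.7 and 42.8 against 593 and 464 (-3.38 ± 0.23, adjusted p = 4.53e-08). *STOM* and *CD47* are named as red cell membrane genes but are not particular to that lineage.

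Among the globins 6 of 8 were higher and *HBD* was lower. *HBE1* stood at 23491.9 and 19944.3 against 5864.8 and 5864.3 (2.21 ± 0.19, adjusted p = 3.26e-07), and *HBA2* at 6392.5 and 6715.8 against 459 and 502 (4.10 ± 0.15, adjusted p = 6.18e-10). *HBD*, the minor adult beta-like gene, stood at 4.58 and 19.4 against 1488.7 and 1112.7 (-6.30 ± 0.52, adjusted p = 2.41e-07), and made up 4.79% and 3.83% of beta-like UMIs in megakaryocytes. Regulators were divided, with 9 of 18 higher and 6 lower. *KLF1* stood at 220 and 242 against 17.8 and 21.0 (3.89 ± 0.18, adjusted p = 2.51e-09), and *GFI1B*, a repressor active in both lineages, at 50.3 and 66.5 against 190 and 187 (-1.35 ± 0.20, adjusted p = 7.65e-05). Of 12 progenitor genes 4 were higher, among them *ITGA4* (5.51 ± 0.31, adjusted p = 8.37e-09) and *MYB* (4.25 ± 0.32, adjusted p = 1.16e-07), and 5 were lower, among them *MEIS1* (-5.40 ± 0.30, adjusted p = 7.41e-09).

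Among the 5 largest increases were *C17orf99* (8.13 ± 0.46), *PKLR*, the red cell pyruvate kinase (7.0 ± 0.35), *FAM83A* (6.26 ± 0.31) and the actin-bundling gene *ESPN* (6.12 ± 0.30). In organoid 32.7 alone, which leaves no test, the log2 fold changes of these genes were larger, at 10.5, 8.79, 7.28 and 6.56. The megakaryocytes of organoid 32.7 held 0, 0.198, 0.396 and 0.792 CPM of these genes, near the limit of detection. The size of these increases is thus uncertain, and no difference between the organoids is read from it. *C17orf99* stood at 117 and 139.7 CPM against 0 and 0.755. All 15 megakaryocyte markers were lower. *TREML1*, a platelet granule receptor, gave no UMI in the members and was at least 194-fold lower than in megakaryocytes, taking 3 counts over the class as the floor. The heparanase gene *HPSE* gave 1 UMI in the members and was 1310-fold lower (counting interval 235 to 51733), and *CLEC1B*, the platelet podoplanin receptor, gave 3 and was 782-fold lower (267 to 3790). *PLEK* (-8.58 ± 0.27) and *PF4V1* (-8.56 ± 0.56) were the next largest decreases.

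The *KCNK17*-positive progenitors, 12 and 44 cells with *GATA1* and at least 2 *KCNK17* UMIs, are called progenitors here by that rule alone and gave the third comparison. Of 13474 genes 22.6% were called, 10.3% higher and 12.3% lower in the MKI67/TOP2A-negative erythroblasts. Several erythroid genes had 0 to 3 UMIs in the progenitors.

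Of 8 globins 7 were higher and *HBD* was lower, and of 14 haem synthesis genes 13 were higher and none was lower. *HBE1* stood at 23491.9 and 19944.3 CPM against 1495.4 and 2139.3 (4.21 ± 0.21, adjusted p = 1.68e-08), *HBD* at 4.58 and 19.4 against 335 and 882 (-4.95 ± 0.51, adjusted p = 7.87e-06), and *ALAS2* at 741 and 761 against 16.3 and 38.8 (5.16 ± 0.26, adjusted p = 2.25e-08). The membrane list had 20 of 27 genes higher and 2 lower. *EPB42* gave no UMI in the progenitors and was at least 13.9-fold higher. Iron handling had 8 of 13 higher and 1 lower, led by *SLC25A37* at 2724.5 and 3316 against 147 and 158 (4.93 ± 0.21, adjusted p = 3.61e-09). Of 18 regulators 9 were higher and none was lower.

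Early genes ran the other way, with 7 of 12 progenitor genes lower and 2 higher. *MEIS1* stood at 8.58 and 14.0 against 409 and 635 (-4.86 ± 0.31, adjusted p = 1.60e-07), *RUNX1*, a master factor of blood emergence, at 105 and 145 against 944 and 959 (-2.27 ± 0.20, adjusted p = 1.97e-06), and *GATA2* at 7.43 and 10.7 against 53.1 and 75.2 (-2.22 ± 0.30, adjusted p = 9.24e-05). *ITGA4* was among the higher genes, at 60.0 and 61.1 against 16.3 and 16.3 (2.52 ± 0.37, adjusted p = 0.000199). Its level was thus lower in the members than in MKI67/TOP2A-positive erythroblasts, and higher than in megakaryocytes and progenitors. *MYB* was lower (-1.12 ± 0.29, adjusted p = 0.0119). In cells of 3000 to 20000 UMIs its log2 fold change was again -1.12, but it did not pass (adjusted p = 0.19, range over the alternatives 0.000498 to 0.19).

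The largest increases over the progenitors were *ESPN*, which gave no UMI there and was at least 23.5-fold higher, *ADAMTS19* at 85.8-fold (counting interval 15.3 to 3397), *C17orf99* at 68.5-fold (18.9 to 567), *PKLR* at 59.5-fold (16.4 to 493) and *HBM* at 48.7-fold (16.6 to 237), each of the last 4 against 1 to 3 UMIs. The largest decreases were *PLEK* (-6.71 ± 0.27), *ANGPT1* (-6.21 ± 0.42), *LCP2* (-6.17 ± 0.41), *MMRN1* (-6.04 ± 0.43) and *MED12L* (-6.00 ± 0.45). *PLEK* stood at 2.86 and 4.01 CPM against 507 and 649. *C17orf99*, *PKLR* and *ESPN* were among the 5 largest increases against both classes, which share the members' sums.

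**Figure D5:**
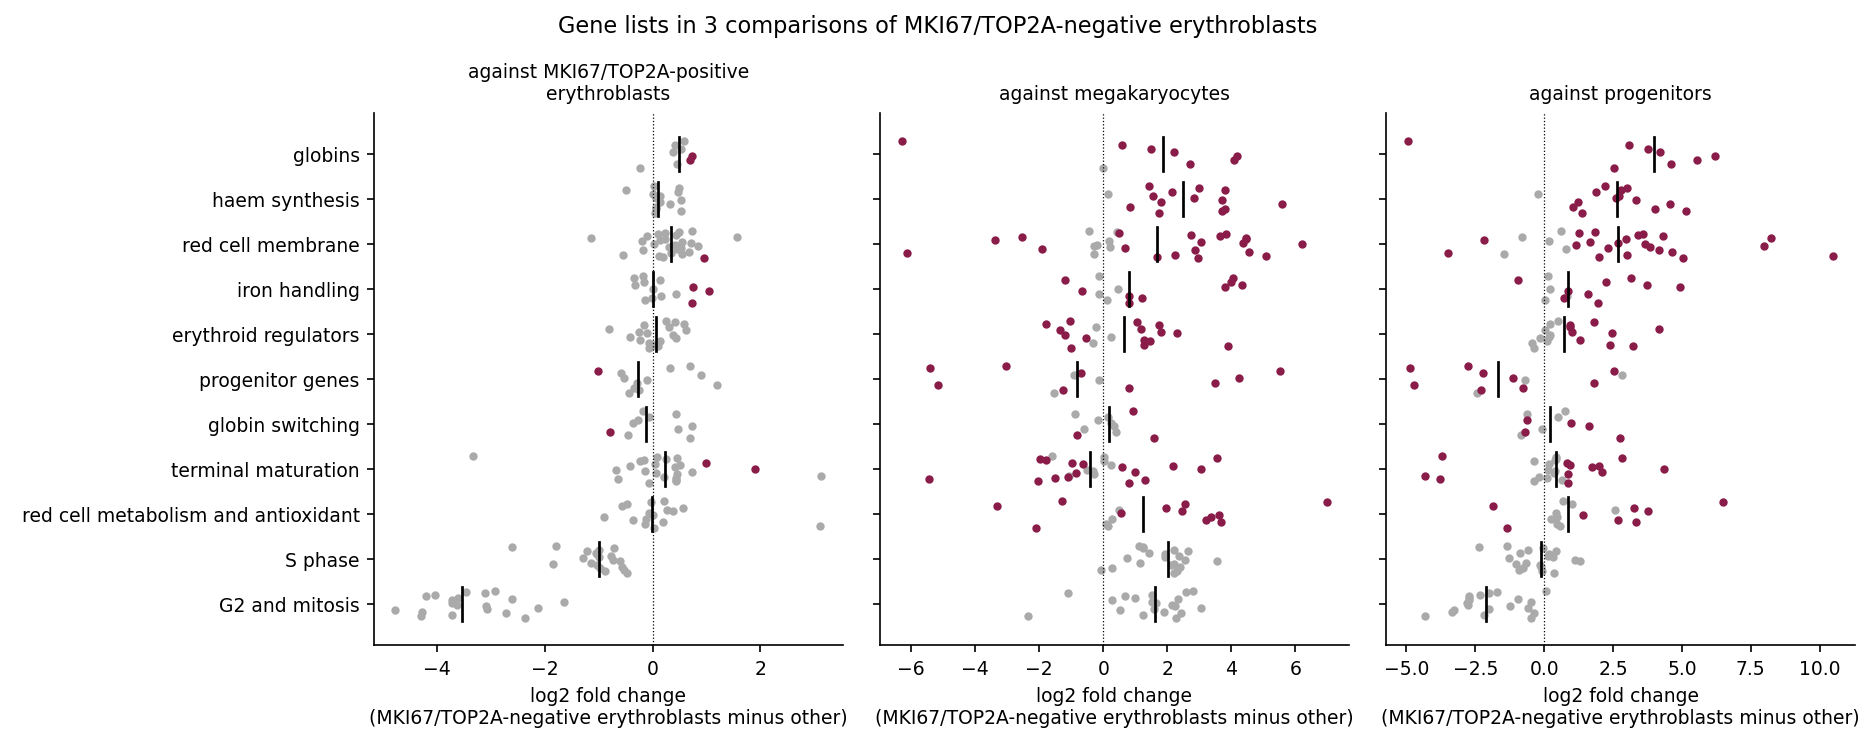
Log2 fold change of every tested gene of 11 lists (points; magenta where the adjusted p is under 0.05, grey otherwise and for the S-phase and G2 lists, for which no call is given because *MKI67* and *TOP2A* chose the members) and the list median (bar), for MKI67/TOP2A-negative erythroblasts minus each of 3 other classes. Haem synthesis has a median of 0.10 in the left panel and 13 of 14 genes higher in each of the other panels; fitted values of genes with no UMI in 1 class are not bounds.

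Transcripts of other cell types were low but present among the members. The summed 10 mesenchymal and epicardial markers stood at 329 and 115 CPM against 1683 and 1186.1 over all barcodes, led by *COL3A1* at 133 and 45.1. The 10 cardiomyocyte markers summed to 268 and 186 against 4565.1 and 4208.3, led by *TNNT2* at 70.3 and 34.7. Endothelial markers summed to 177 and 158, led by *EGFL7*, with *CLDN5* at 0. Megakaryocyte markers summed to 104 and 162, led by *TUBB1* at 36.6 and 43.8, with *TREML1* at 0. Myeloid markers summed to 68.1 and 63.5 with *CD14*, *C1QA* and *ELANE* at 0, and endoderm markers to 6.29 and 4.68 with *TTR*, *FOXA2* and *FGB* at 0.

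At 3000 UMIs, 5 or more UMIs of the mesenchymal list were found in 5 and 4 members, of the cardiomyocyte list in 2 and 6, of the megakaryocyte list in none and 5, and of the endothelial list in 1 and 1. The platelet and matrix adhesion gene *THBS1* was the 1 megakaryocyte marker called against MKI67/TOP2A-positive erythroblasts, at 9.72 and 12.7 against 1.67 and 3.22 (2.25 ± 0.56, adjusted p = 0.0366, range over the alternatives 4.23e-08 to 1), and no UMI of it was left in either class once 10% of the UMIs was subtracted as free RNA. When the 13 and 16 members with over 1000 CPM of other types' markers were left out, the epsilon share was 35.7% and 29.6% and the globin share 17.3% and 16.1%. Cardiomyocyte-like barcodes with 20 or more *MYH6* UMIs, which should hold no globin, held 249 and 236 *HBZ*, 160 and 481 *HBE1* and 368 and 1145 *HBG2* CPM and 6.84 and 14.6 of *ALAS2*. The members' *HBZ* was set by the rule and is not compared with these levels. Because all values are shares of a cell's UMIs, a lower level of 1 gene and a higher total of the others cannot be told apart.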

How the data were processed

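The authors aligned the reads of the 2 libraries with Cell Ranger 7.0.0 to GRCh38, counted intronic reads too, and deposited whole-number UMI counts per gene and barcode. The counts used here precede the study's depth equalisation, free-RNA removal and cell filter. The library totals were 191152562 UMIs in 16866 barcodes and 233818881 in 19948. The members and the gene lists were chosen with earlier results of these data known. Cells were gated in Python 3.11.15 and UMIs summed per organoid and class (5 classes, 10 sums, also a class of *HBZ*-high cells without *SLC4A1* or *AHSP*, used for the spread). Sums were tested with edgeR 4.0.16 (TMM, filterByExpr, quasi-likelihood, Benjamini-Hochberg over 13474 genes, threshold 0.05); genes of the gates and mitochondrial genes were left out. Cells were not treated as replicates, and p-values measure the spread between organoids, which are separate cultures of 1 line. Named genes were members of the lists and the 5 largest called differences in each direction with a level of at least 50 CPM in 1 class and the same direction in both organoids. Classes compared come from the same 2 organoids, so the organoid pairs them. Deviations of paired sums correlated at 0.03, 0.16 and 0.16 for the MKI67/TOP2A-positive erythroblasts, megakaryocytes and progenitors. Of 257 listed genes 256 matched. No doublet caller was run; leaving out the top 5% of cells by UMIs was an alternative. DESeq2 1.42.0, no TMM, no filter, other gates and a 10% subtraction of the mean profile as free RNA were further alternatives. Promoters are RefSeq windows on GRCh38.p14; positions are from GENCODE release 44. The test was checked on simulated data, and the outcome is not reported here. Some listed genes that belong to the results are not reported here.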

Additional observations from a re-analysis of the deposited data

Results flagged for a closer look

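A signal of the same kind lay outside the gene limit used for the members. Of the 722 barcodes with under 500 genes in organoid 32.7, 54 (7.48%) held at least 30000 CPM of *HBZ*, and of 348 in organoid 33.10, 16 (4.60%) did. Among barcodes that passed the gene and mitochondrial limits 526 of 15632 and 1168 of 19117 did. That is a lower share than under the limit in organoid 32.7 and a higher one in organoid 33.10. The *HBZ*-high barcodes under the limit had medians of 845 and 1272 UMIs and a globin share of 20.3% and 23.2%. Their *HBE1* share of beta-like UMIs was 33.5% and 19.0%. *AHSP* was detected in 14 and 4 of them and *SLC4A1* in 6 and 1. The nuclear RNA *MALAT1* stood at 3340.6 and 2481.8 CPM there, against 20710.8 and 21750.8 in the members. What these barcodes hold was not tested.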

How the results depend on the processing

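The count of genes higher in MKI67/TOP2A-negative than in MKI67/TOP2A-positive erythroblasts, 137, was 286 with no filter on low counts, 219 with the organoid as a block, 45 in cells of 3000 to 20000 UMIs, 72 with *HBZ* of at least 60000 CPM, 83 without the top 5% of UMIs and 209 with at least 3 *MKI67* and *TOP2A* UMIs in the positive class. The count lower, 384, was 599 with no filter, 155 in cells of 3000 to 20000 UMIs and 248 without the top 5%. Of the 521 genes called 187 were also called in cells of 3000 to 20000 UMIs and 519 with the block, which changed the call of no gene named here other than *GYPB*. Without TMM, which moved the median log2 fold change of all genes to -0.39 against megakaryocytes and -0.68 against progenitors, 1838 genes were higher than in megakaryocytes (2812 with TMM), and 623 were higher (1392) and 4244 lower (1654) than in progenitors; in cells of 3000 to 20000 UMIs 1101 were lower than in progenitors. The cause was not tested. The share of members, 0.608% and 1.29%, was 0.377% and 0.717% with *HBZ* of at least 60000 CPM and 0.377% and 0.811% with at least 2 UMIs of *AHSP* and *SLC4A1*. The mean globin share of 15.97% was 19.6% at *HBZ* of 60000 CPM, 17.7% in cells of 3000 to 20000 UMIs, 17.5% after subtracting free RNA, 16.7% without cells rich in other types' markers and 16.8% as a mean over cells. The mean epsilon share of 32.8% was 38.4% as a mean over cells. With 1 organoid at a time, which leaves no test, the share of members was 0.608% to 1.29%, the epsilon share 29.7% to 35.9% and the globin share 15.8% to 16.1%.

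Single alternatives ended other calls against MKI67/TOP2A-positive erythroblasts. *HBM* missed the threshold without TMM, with no filter and without the top 5% of UMIs (log2 fold changes 0.65, 0.64 and 0.74, adjusted p 0.0691, 0.0539 and 0.0704). *HBA2* missed it without the top 5% (0.76, adjusted p 0.276), *XK* with the higher *HBZ* limit (0.82, 0.0827) and *RGS6* with DESeq2 (1.59, 0.211). *ITGA4* also missed it with DESeq2 (-0.97, 0.0517), the higher *HBZ* limit (-0.77, 0.264) and without the top 5% (-0.87, 0.124). *IGF2BP1* also missed it with the higher *HBZ* limit (-0.77, 0.0782) and without the top 5% (-0.65, 0.0891), and *YPEL4* with the higher *HBZ* limit (1.77, 0.103). Over the 28 genes named in this comparison, 287 of 331 tested alternatives kept their direction and side of the threshold, 22 lost it, 22 passed where the gene had not, and none changed sign. The gains were *GYPB* in 7 alternatives, *HBA1* in 4, *HBG2* and *FTH1* in 3 each, *ALAS2* and *HMOX1* in 2 each and *HBE1* in 1. Each of these genes passed when only the 2 classes compared were fitted (adjusted p 0.00059 to 0.0159). With 1 organoid at a time, which has no test, 55 of 56 log2 fold changes stayed within the spread between organoids and 1 moved by more. For the genes named in the other comparisons, 9 of 54 moved by more against megakaryocytes and 14 of 42 against progenitors. The estimate from both organoids usually lies between the 2 single values. Staying within their spread is thus close to given by the measure, and stability is not read from these counts. Organoid 32.7 held 12 progenitors, and differences in genes with few UMIs there may not be detectable at this depth.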
